A study of Mus musculus with 14 samples.

Results

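The genes that build cholesterol and fatty acids were followed across lymph-node dendritic cells (DCs) sorted by whether they had been labelled through contact with T cells. The set holds 31 genes, chosen by name from the 23420 gene symbols of the count table: 8 of the mevalonate pathway, 11 of squalene and sterol synthesis, 6 that control sterol regulatory element-binding proteins (SREBPs) or carry sterol, and 6 of fatty-acid synthesis. All 31 were found, Msmo1 under its older symbol Sc4mol, and all 31 passed the filter on low counts that kept 14217 genes for testing.

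Polyadenylated RNA was measured by Smart-seq2, a full-length cDNA method for small samples, in 14 libraries of 150 sorted cells from popliteal lymph nodes of C57BL/6 mice. Contact was recorded with LIPSTIC: sortase A, fused to the CD40 ligand of a T cell, attaches a biotinylated peptide (biotin-LPETG) to an oligoglycine tag on the CD40 of the DC it touches. The 6 biotin-positive and 6 biotin-negative libraries were sorted from Cd40G5/G5 recipients, whose genotype is also written G5-Cd40+/+. These mice received OVA323-339-pulsed Cd40G5/G5 DCs, and then CD4+ T cells of the OT-II line, whose receptor recognises that peptide, from CD40lgSrtA/Y mice in which CD4-Cre drives recombination in T cells. The 2 Cd40-null libraries came from Cd40-/- mice, into which both the pulsed DCs and the OT-II T cells were transferred as wild type. Genotype and transferred cells thus cannot be told apart in this group, whose DCs were not split by label. In all 3 groups T cells followed the DCs by 18 hours, the substrate was given 46 hours later and nodes were taken at 48 hours. The sorted cells were the hosts' own DCs, gated as high in MHC class II, CD11c+, CD11b+ and XCR1-. The labels give no age and do not say that each library is another mouse. The p-values therefore cover the spread among these libraries, which may be technical.

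Cholesterol is made from acetyl-CoA through the mevalonate pathway to farnesyl diphosphate, which is joined into squalene, closed into lanosterol and trimmed to cholesterol. SREBPs are transcription factors held in the endoplasmic reticulum with the escort protein SCAP. When membrane sterol is low, SCAP carries them to the Golgi for cutting, and the freed factors switch on most genes of sterol and fatty-acid synthesis, while INSIG proteins hold SCAP back when sterol is plentiful. In DCs and other immune cells this programme is known to supply membrane, and its intermediates also serve to anchor small GTPases.

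The promoters of 4 enzymes that differed between the biotin groups are shown, because SREBPs and their partner factor NF-Y are known to act close to the start sites of sterol genes. Each runs from 250 bases before to 50 after a RefSeq start site, 300 bases in all, 5′ to 3′ on the gene's strand (GRCm38.p6). For Lss that site lies inside the gene span given further below, not at its outer end. The windows are chr13:119690101-119690400 (plus strand) for Hmgcs1, chr10:76531355-76531654 (plus strand) for Lss, chr5:4104648-4104947 (minus strand) for Cyp51 and chr8:64733529-64733828 (minus strand) for Msmo1. Capitals mark TCACNCCAC, a form of the sterol regulatory element, and CCAAT, the NF-Y letters, on either strand, so that a CCAAT of the other strand reads ATTGG.
Hmgcs1: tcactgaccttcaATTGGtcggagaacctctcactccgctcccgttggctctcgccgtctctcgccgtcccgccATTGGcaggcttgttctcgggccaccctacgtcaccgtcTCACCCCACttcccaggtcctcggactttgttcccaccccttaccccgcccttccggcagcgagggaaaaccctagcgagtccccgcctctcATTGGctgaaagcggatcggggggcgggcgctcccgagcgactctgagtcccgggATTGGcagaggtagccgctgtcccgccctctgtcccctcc
Lss: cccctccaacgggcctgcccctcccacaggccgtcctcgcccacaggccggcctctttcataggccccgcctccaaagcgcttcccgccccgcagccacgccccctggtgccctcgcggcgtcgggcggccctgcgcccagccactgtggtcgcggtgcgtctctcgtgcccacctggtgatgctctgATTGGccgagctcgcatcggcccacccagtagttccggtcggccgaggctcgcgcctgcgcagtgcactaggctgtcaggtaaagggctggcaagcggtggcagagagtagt
Cyp51: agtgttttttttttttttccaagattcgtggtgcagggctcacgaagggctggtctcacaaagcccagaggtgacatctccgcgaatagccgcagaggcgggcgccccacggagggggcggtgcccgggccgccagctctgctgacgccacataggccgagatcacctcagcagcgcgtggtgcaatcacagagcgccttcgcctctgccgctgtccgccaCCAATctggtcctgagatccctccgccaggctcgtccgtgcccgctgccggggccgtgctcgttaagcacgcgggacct
Msmo1: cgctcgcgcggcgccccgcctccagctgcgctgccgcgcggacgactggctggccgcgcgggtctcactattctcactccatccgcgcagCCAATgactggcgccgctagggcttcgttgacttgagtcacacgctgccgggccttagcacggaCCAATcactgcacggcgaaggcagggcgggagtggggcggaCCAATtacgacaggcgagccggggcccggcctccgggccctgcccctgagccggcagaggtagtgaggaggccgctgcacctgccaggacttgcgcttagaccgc
The RefSeq table held a window for 25 of the 31 genes, and for 8 of the 11 that were higher in biotin-positive DCs. Fdps, Fdft1, Sqle, Stard4, Scd1 and Scd2 had none. CCAAT stood in the windows of 21 of these 25 genes (84%), against 41.1% of 27025 genes in the table, and GGGCGG, the letters of an Sp1 box, in 20 of 25 (80%) against 38.2%. TCACNCCAC stood in 1 of 25, Hmgcs1, 137 bases before its start, against 1.44% of all genes, and TCACGTGA, an E-box form, in 0 of 25 against 1.12%. All motifs were read on both strands, and no matches of different motifs overlapped in the 4 windows shown. CCAAT was present in 7 of the 8 genes that were higher and in 14 of the 17 others with a window. These are matches of letters, not measured binding.

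Total counts ran from 14518099 to 33260704 per library. Cd40 stood at 1062 ± 163 CPM (counts per 1e+06 counts of the library, scaled by TMM factors) in biotin-positive, 511 ± 78.7 CPM in biotin-negative (SD, n = 6 each) and 63.7 ± 14.7 CPM in Cd40-null libraries (SD, n = 2). Of 10 DC markers 0 rose and 5 fell in biotin-positive against biotin-negative DCs, 4 of them genes of the gate or of antigen presentation. H2-Ab1, a chain of MHC class II, had 230 ± 113 CPM in biotin-positive DCs against 1245 ± 397 CPM in biotin-negative DCs (log2 -2.44, edgeR adjusted p = 0.000456). Cd74, the invariant chain, fell by 1.58 on the log2 scale, Itgax, which encodes CD11c, by 1.32 and Sirpa, a receptor of CD11b+ DCs, by 1.33. Itgam, which encodes the CD11b of the gate, was low, at 1.91 ± 2.38 CPM in biotin-positive DCs against 25.3 ± 21.3 CPM in biotin-negative DCs (log2 -3.76, adjusted p = 0.0145). Flt3, Zbtb46, Irf4, Ccr7 and Xcr1 did not pass the test, with Flt3 at 1015 ± 87.6 CPM in biotin-positive DCs against 849 ± 89.0 CPM in biotin-negative DCs and Xcr1 at 2.00 ± 0.467 and 3.09 ± 0.877 CPM. The 10 markers summed to 4933 to 6873 CPM in biotin-positive, 7623 to 9604 CPM in biotin-negative and 5578 to 6852 CPM in Cd40-null libraries, so that the biotin groups did not overlap.

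Setting biotin-positive against biotin-negative DCs addresses what sets apart the cells that carried the mark of T cell contact at CD40. Transcripts of the set leaned higher in the labelled DCs. At an adjusted p under 0.05, 11 of the 31 genes rose and 0 fell (edgeR quasi-likelihood test, adjusted over all 14217 genes). Of all genes tested, 3.7% rose and 4.05% fell. The fold change was above 0 on the log2 scale for 28 of the 31, with a median of 0.72 against -0.03 over all genes, and 22 of the 31 had an unadjusted p under 0.05, all of them higher, where 9.21% of all genes were higher and 11.8% lower at that p. None of the 31 fell by DESeq2 or limma voom either. In 6 of the 31 (Fdft1, Sqle, Msmo1, Srebf1, Srebf2 and Acly) every biotin-positive library lay above every biotin-negative one, which held for 2.6% of all genes tested. By role, 2 of 8 mevalonate genes, 5 of 11 sterol genes, 3 of 6 control genes and 1 of 6 fatty-acid genes rose. In libraries of pooled cells, more RNA per cell and more cells of a type cannot be told apart.

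**Figure D1:**
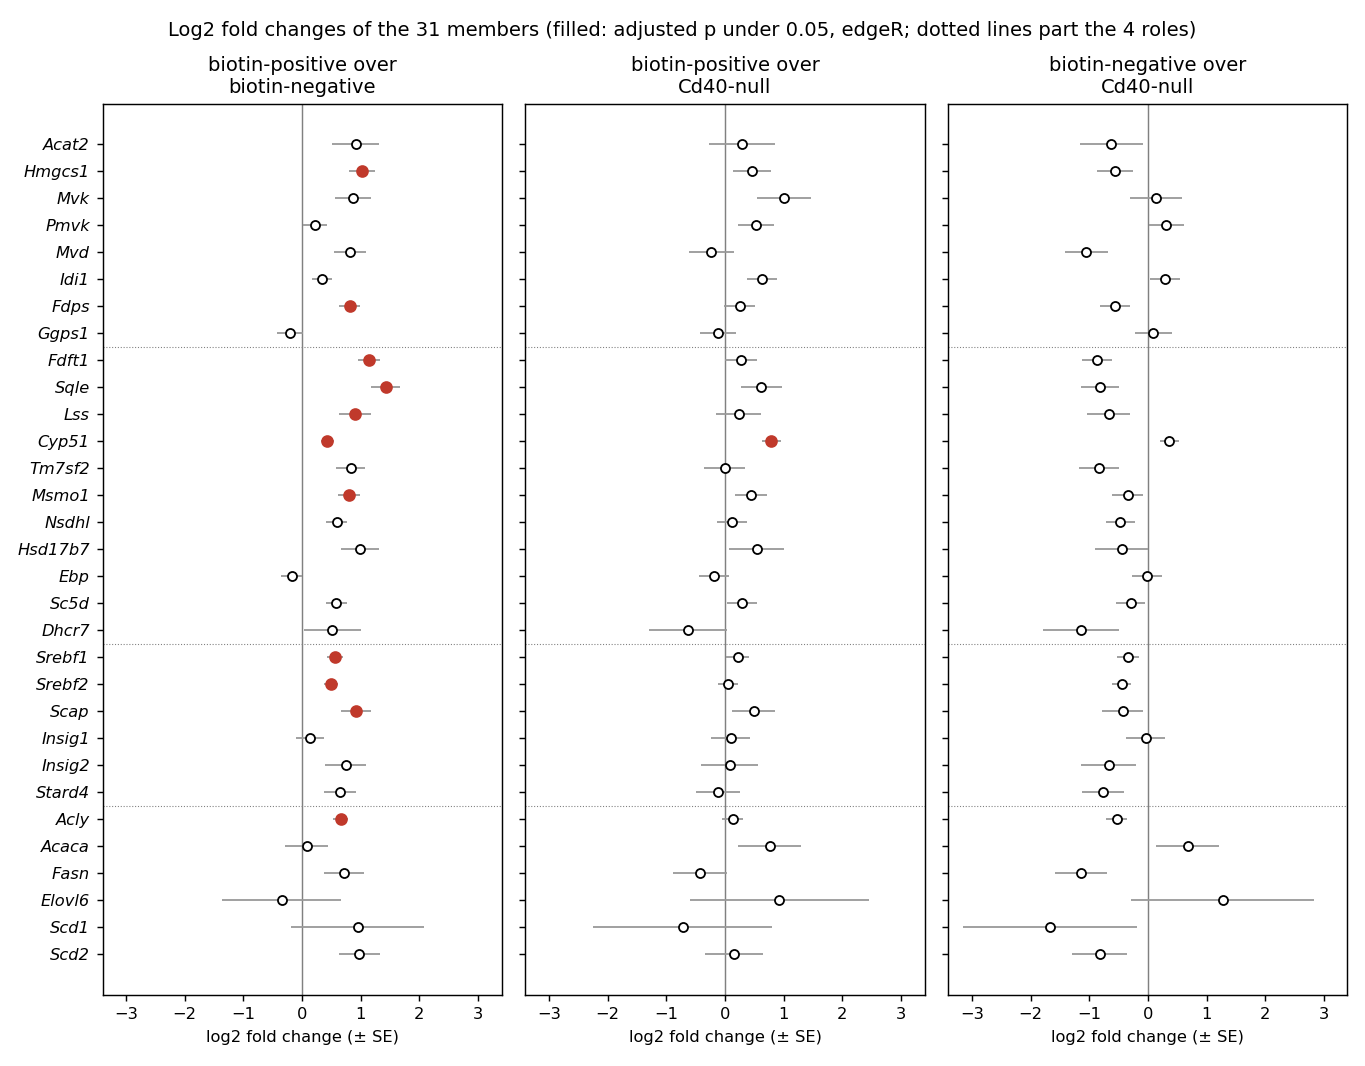
Log2 fold change (x axis, ± SE) of the 31 genes (y axis, parted by role) between biotin-positive and biotin-negative (left), biotin-positive and Cd40-null (middle) and biotin-negative and Cd40-null libraries (right). Filled points passed an adjusted p of 0.05: 11 on the left, 1 in the middle (Cyp51) and 0 on the right, and 28 of 31 points on the left lie above 0.

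Several measures of the libraries moved with the biotin groups. Genes with a count numbered 13090 to 13455 in biotin-positive, 14225 to 15742 in biotin-negative and 13113 to 13596 in Cd40-null libraries. The ribosomal precursor Rn45s took 17.7% ± 1.71 of the counts of biotin-positive DCs and 20.6% ± 0.747 of those of biotin-negative DCs (SD, n = 6 each). Among 22 markers of monocytes and macrophages 13 fell and 0 rose, and their summed level was 125 to 295 CPM in biotin-positive, 324 to 1769.6 CPM in biotin-negative and 403 to 679.9 CPM in Cd40-null libraries. Among them Mrc1 was at 0 in every biotin-positive library, and Mertk, Cd36 and Mrc1 in both Cd40-null libraries. Of 6 Langerhans cell markers 3 rose (Cd207, Epcam and Cldn1) and 0 fell. The list did not move as 1: 4 of the 6 had a log2 change above 0, and changes ran from -2.04 to 1.96. Their sums were 337 to 513 CPM in biotin-positive, 60.0 to 163 CPM in biotin-negative and 133 to 165 CPM in Cd40-null libraries. Neither pair of sums overlapped between the biotin groups.

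Sums of 16 T cell markers overlapped, at 35.4 to 73.6 CPM in biotin-positive, 23.9 to 105 CPM in biotin-negative and 38.5 to 168 CPM in Cd40-null libraries. Although 0 of the 16 rose or fell, 14 had a log2 change above 0, with a median of 1.67 against -0.03 over all genes. At an unadjusted p under 0.05 (edgeR) 3 of the 16 were higher and 0 lower, where 9.21% of all genes were higher and 11.8% lower. NK cell markers (2 of 4 tested fell, Klrd1 and Klrk1) summed to 38.1 to 72.3 CPM in biotin-positive and 151 to 239 CPM in biotin-negative libraries, with Ncr1 at 0 in biotin-positive and in Cd40-null libraries. B cell and stromal markers had 0 calls among 8 and 5 tested, with B cell sums of at most 88.7 CPM and stromal sums of at most 16.2 CPM in any library. Cell division genes had 0 of 20 called and sums of 256 to 359 CPM in biotin-positive and 285 to 421 CPM in biotin-negative libraries. The part of these measures in the result for the 31 genes was not tested. As a covariate, a marker level was the mean log2 CPM of its list, not the summed CPM given above. With detected genes as a covariate 0 of the 31 genes were called, with the monocyte and macrophage level 2 and with the T cell level 4. With the Langerhans level, an alternative added after the data were seen, 3 were called. Calls over all genes, in either direction, also dropped, to 0.0774%, 0.647%, 3.47% and 3.08% in that order, against 7.75% without a covariate. The median log2 change of the 31 genes was 0.27 with detected genes, 1.09 with the monocyte and macrophage level, 0.70 with the T cell level and 0.70 with the Langerhans level, against 0.72 without a covariate. Of the variance of each covariate over the 12 biotin-sorted libraries, the biotin contrast accounts for 80.5% for detected genes, 76.5% for the monocyte and macrophage level, 56.7% for the T cell level and 42.4% for the Langerhans level.

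**Figure D2:**
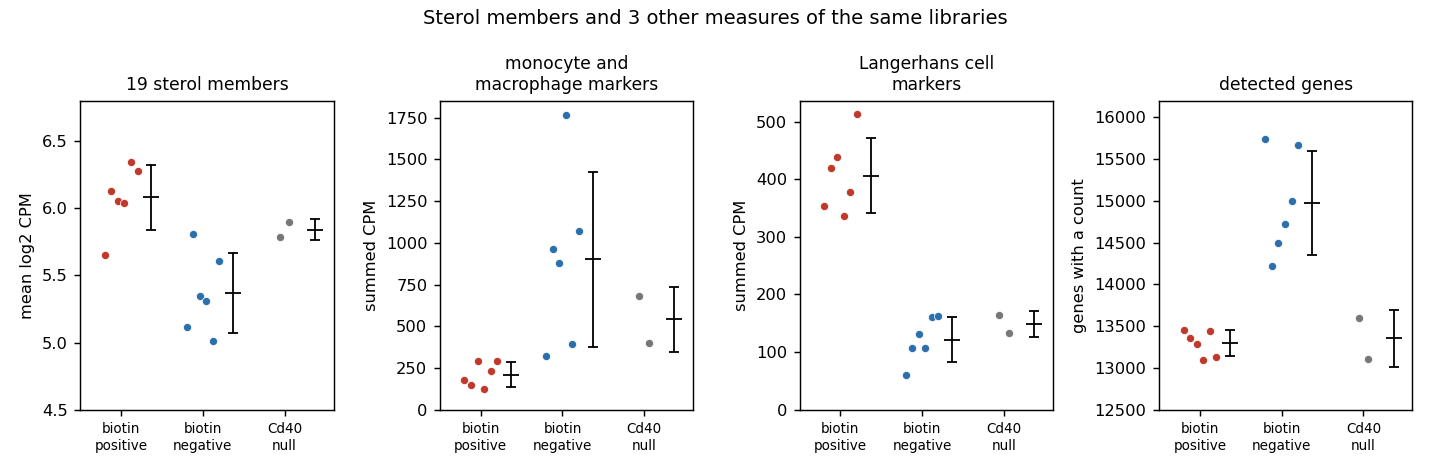
For each library (points; bars are mean ± SD), from left to right, the mean log2 CPM of the 19 mevalonate and sterol genes, the summed CPM of monocyte and macrophage markers, the summed CPM of Langerhans cell markers, and the number of genes with a count. The first and last axes do not start at 0. The marker sums and detected genes do not overlap between the biotin groups, whereas the sterol means (5.65 to 6.34 in biotin-positive and 5.01 to 5.81 in biotin-negative libraries) overlap slightly.

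Of the mevalonate genes, Hmgcs1 and Fdps rose. Hmgcs1, the synthase that makes HMG-CoA (chr13:119690351-119708260), ran from 179.7 to 488 CPM (median 361) in biotin-positive and from 112 to 246 CPM (median 184) in biotin-negative libraries, and stood at 272 and 258 CPM in the Cd40-null libraries. Biotin-positive replicate 1, at 179.7 CPM, was the only library of its group inside the biotin-negative range. Hmgcs1 was 2.03-fold higher in biotin-positive DCs (log2 1.02, SE 0.22, adjusted p = 0.00868). Its exons share 12.1% of their length with Gm48342 on the opposite strand, and the part of shared reads was not tested. Fdps, which makes farnesyl diphosphate (chr3:89093588-89101967), ran from 93.0 to 179 CPM (median 128) in biotin-positive and from 51.9 to 112 CPM (median 74.7) in biotin-negative libraries, with 124 and 106 CPM in the Cd40-null ones (log2 0.81, SE 0.18, adjusted p = 0.0106). Again only biotin-positive replicate 1 entered the biotin-negative range. The exons of Fdps share 26.7% of their length with Gm43738 on the same strand, so the 2 cannot be told apart there.

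The steps between them did not pass the test. Mvk, mevalonate kinase, averaged 44.0 ± 9.81 CPM in biotin-positive DCs against 24.0 ± 14 CPM in biotin-negative DCs (SD, n = 6 each; log2 0.87, SE 0.31, adjusted p = 0.102). For Mvd, the decarboxylase that follows the kinases, the averages were 71.8 ± 21.9 CPM in biotin-positive DCs against 40.8 ± 17.4 CPM in biotin-negative DCs (log2 0.82, SE 0.28, adjusted p = 0.0854). Pmvk, the other kinase of the route, had a log2 change of 0.22 (SE 0.21) and Idi1, the isomerase that makes the starter unit, 0.34 (SE 0.17). Acat2, which joins acetyl-CoA units, had 0.91 (SE 0.40, adjusted p = 0.191), with libraries spread from 15.0 to 57.0 CPM in biotin-positive and from 5.67 to 36 CPM in biotin-negative DCs. Ggps1, which diverts farnesyl diphosphate to geranylgeranyl diphosphate for protein anchoring, stood at 22.6 ± 4.58 CPM in biotin-positive DCs against 26.2 ± 7.07 CPM in biotin-negative DCs (log2 -0.21, SE 0.22, adjusted p = 0.679). It shares 5.44% of its exon length with Arid4b on the opposite strand, which fell (log2 -0.49, edgeR adjusted p = 0.0133). The part of shared reads in the Ggps1 level was not tested.

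The largest fold changes of the 31 genes were at the making and the oxidation of squalene. Sqle, squalene epoxidase, a rate-limiting oxidation that prepares squalene for ring closure (chr15:59315092-59331193), ran from 85.2 to 179 CPM (median 135) in biotin-positive and from 25.2 to 77.3 CPM (median 52.1) in biotin-negative libraries, with 77.5 and 101 CPM in the Cd40-null libraries. The biotin groups did not overlap, and the fold was 2.68 (log2 1.42, SE 0.24, adjusted p = 0.00136). Fdft1, squalene synthase, the first enzyme given over to sterol alone (chr14:63145150-63181687), ran from 102 to 182 CPM (median 153) in biotin-positive and from 42.3 to 95.3 CPM (median 65.6) in biotin-negative libraries, with 124 and 121 CPM in the Cd40-null ones. The groups did not overlap here either, and the fold was 2.21 (log2 1.15, SE 0.19, adjusted p = 0.00108). Both calls were kept in 28 of 29 alternatives, among them every library left out in turn, and were lost with detected genes as a covariate.

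Fdft1 shares 774 bases, 18.3% of its exon length, with the opposite-strand gene Ctsb (cathepsin B), and Smart-seq2 does not mark strand. Ctsb was itself higher, at 1212 ± 161 CPM in biotin-positive DCs against 543 ± 72.0 CPM in biotin-negative DCs (log2 1.16, SE 0.11, adjusted p = 1.40e-05). Against the Cd40-null libraries the log2 change in biotin-positive DCs was 0.97 (adjusted p = 0.00501) for Ctsb and 0.28 (SE 0.27, adjusted p = 0.730) for Fdft1. The part of shared reads in the Fdft1 level was not tested.

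Further along the sterol route, Lss, Cyp51 and Msmo1 rose. Msmo1, a sterol methyl oxidase (chr8:64718123-64733578), ran from 90.3 to 153 CPM (median 105) in biotin-positive and from 40.5 to 90.0 CPM (median 63.4) in biotin-negative libraries, with 80.8 and 81.1 CPM in the Cd40-null ones. The biotin groups did not overlap but came within 1 CPM of each other (log2 0.80, SE 0.19, adjusted p = 0.0146). Cyp51, the lanosterol demethylase (chr5:4080674-4104697), ran from 269 to 359 CPM (median 323) in biotin-positive and from 203 to 285 CPM (median 217) in biotin-negative libraries, with 184 and 181 CPM in the Cd40-null ones. Its difference was the smallest of the 11 (log2 0.43, SE 0.11, adjusted p = 0.0238), and biotin-positive replicate 5 was the library inside the biotin-negative range. The cyclase that closes squalene into lanosterol, Lss (chr10:76531565-76557139), ran from 27.4 to 68.8 CPM (median 57.1) in biotin-positive and from 15.7 to 44.3 CPM (median 27.5) in biotin-negative libraries, with 40.1 and 49.0 CPM in the Cd40-null ones (log2 0.90, SE 0.27, adjusted p = 0.0482). Lss lost its call in 23 of 29 alternatives, 12 of them the leaving out of a single library, and Cyp51 in 9, 5 of them a single library (biotin-positive replicate 2, 3 or 4, or biotin-negative replicate 2 or 3).

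**Figure D3:**
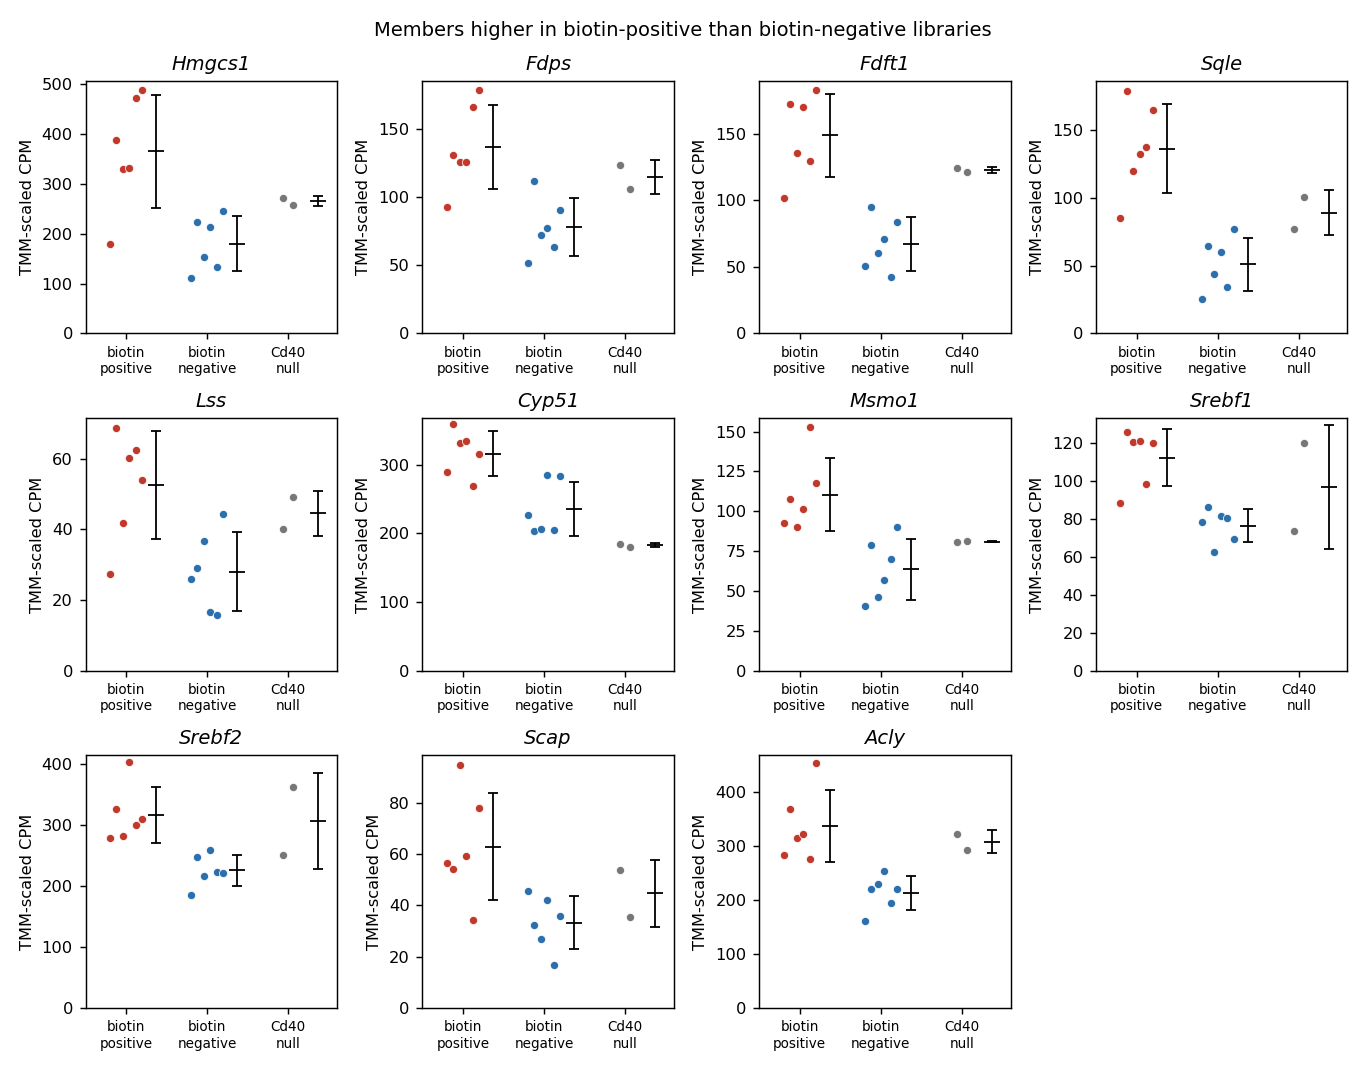
Level in TMM-scaled CPM (y axes from 0) of the 11 genes that were higher in biotin-positive than in biotin-negative libraries. Each point is a library and bars are mean ± SD. The biotin groups are apart in 6 panels (Fdft1, Sqle, Msmo1, Srebf1, Srebf2 and Acly), and both Cd40-null libraries of Cyp51, at 184 and 181 CPM, lie below all others.

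The other sterol genes lay just outside the threshold or far from it. Tm7sf2, a sterol reductase, averaged 17.8 ± 2.47 CPM in biotin-positive DCs against 10.0 ± 3.47 CPM in biotin-negative DCs (log2 0.83, SE 0.25, adjusted p = 0.0545). It shares 12.1% of its exon length with Vps51, which rose (log2 0.63, adjusted p = 0.00794), and the part of shared reads was not tested. Sc5d, a sterol desaturase, averaged 104 ± 15.1 CPM in biotin-positive DCs against 69.3 ± 21.4 CPM in biotin-negative DCs (log2 0.58, SE 0.18, adjusted p = 0.0557). Nsdhl and Hsd17b7, which work after the methyl oxidase, had log2 changes of 0.59 (SE 0.18, adjusted p = 0.0601) and 0.99 (SE 0.33, adjusted p = 0.0788). Ebp, a sterol isomerase, stood at 21.4 ± 2.65 CPM in biotin-positive DCs against 24.1 ± 3.82 CPM in biotin-negative DCs (log2 -0.18, SE 0.18). Dhcr7, which makes cholesterol in the last step of a branch, was low, at 12.2 ± 7.30 CPM in biotin-positive DCs against 8.58 ± 5.46 CPM in biotin-negative DCs (log2 0.51, SE 0.49).

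Both SREBP genes and their escort rose. Srebf2, whose protein mainly drives sterol genes (chr15:82147269-82205379), ran from 278 to 403 CPM (median 305) in biotin-positive and from 185 to 259 CPM (median 222) in biotin-negative libraries, with 251 and 362 CPM in the Cd40-null ones (log2 0.49, SE 0.12, adjusted p = 0.0154). The biotin groups were apart, and 1 Cd40-null library lay within each. Srebf1, whose protein mainly drives fatty-acid genes (chr11:60199084-60224186), ran from 88.4 to 126 CPM (median 120.4) in biotin-positive and from 62.6 to 86.1 CPM (median 79.4) in biotin-negative libraries, with 73.7 and 120.2 CPM in the Cd40-null ones (log2 0.56, SE 0.14, adjusted p = 0.0188). Its biotin groups did not overlap either, and the Cd40-null libraries again fell 1 in each. Scap, the escort protein (chr9:110333288-110384949), ran from 34.5 to 94.9 CPM (median 58.1) in biotin-positive and from 16.8 to 45.6 CPM (median 34.1) in biotin-negative libraries, with 54.0 and 35.5 CPM in the Cd40-null ones (log2 0.92, SE 0.25, adjusted p = 0.0345). Biotin-positive replicate 5 lay inside the biotin-negative range. Scap shares 13.2% of its exon length with 5830462I19Rik on the opposite strand, and the part of shared reads was not tested. Scap lost its call in 11 of 29 alternatives, 7 of them a single library left out (biotin-positive replicate 3, 4 or 6, or biotin-negative replicate 2, 3, 5 or 6).

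The brakes of the system did not pass the test. Insig1, which retains SCAP and is itself a textbook SREBP target, averaged 49.3 ± 13.7 CPM in biotin-positive DCs against 44.8 ± 16.1 CPM in biotin-negative DCs (log2 0.14, SE 0.24, adjusted p = 0.826). Its level ran from 34.4 to 74.5 CPM in biotin-positive and from 24.5 to 65.1 CPM in biotin-negative libraries, largely the same span. Insig2, the related retention protein, averaged 15.8 ± 7.19 CPM in biotin-positive DCs against 9.46 ± 3.16 CPM in biotin-negative DCs (log2 0.74, SE 0.34, adjusted p = 0.226). Stard4, a carrier of cholesterol between membranes, averaged 17.2 ± 2.92 CPM in biotin-positive DCs against 10.9 ± 4.11 CPM in biotin-negative DCs (log2 0.65, SE 0.27, adjusted p = 0.166).

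In fatty-acid synthesis the gene that rose was the supplier of acetyl-CoA. Acly, ATP-citrate lyase, which feeds both fatty-acid and sterol synthesis (chr11:100476352-100528000), ran from 275 to 453 CPM (median 319) in biotin-positive and from 160.3 to 253 CPM (median 219) in biotin-negative libraries, with 323 and 293 CPM in the Cd40-null ones. The biotin groups did not overlap (log2 0.66, SE 0.13, adjusted p = 0.00398). The enzymes that use its product for fatty acids did not pass the test. Acaca, acetyl-CoA carboxylase, averaged 15.6 ± 7.24 CPM in biotin-positive DCs against 14.8 ± 5.67 CPM in biotin-negative DCs (log2 0.08, SE 0.36). Fasn, fatty-acid synthase, averaged 25.7 ± 10.8 CPM in biotin-positive DCs against 15.6 ± 7.28 CPM in biotin-negative DCs (log2 0.72, SE 0.34, adjusted p = 0.230).

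The desaturases and the elongase varied widely between libraries of a group. Scd2, a stearoyl-CoA desaturase, averaged 52.8 ± 21.6 CPM in biotin-positive DCs against 26.8 ± 13.0 CPM in biotin-negative DCs (log2 0.98, SE 0.35, adjusted p = 0.107). Scd1, its close relative, ran from 0 to 20.7 CPM in biotin-positive and from 0.0937 to 13.5 CPM in biotin-negative libraries, with 21.0 and 7.49 CPM in the Cd40-null ones (log2 0.95, SE 1.14). The 0 was in biotin-positive replicate 4, where 3 counts, the limit a count of 0 allows, come to 0.213 CPM. Scd1 and Scd2 are similar in sequence and may share reads. Elovl6, which lengthens palmitate, was at most 5.29 CPM in any library and had a log2 change of -0.35 (SE 1.02).

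**Figure D4:**
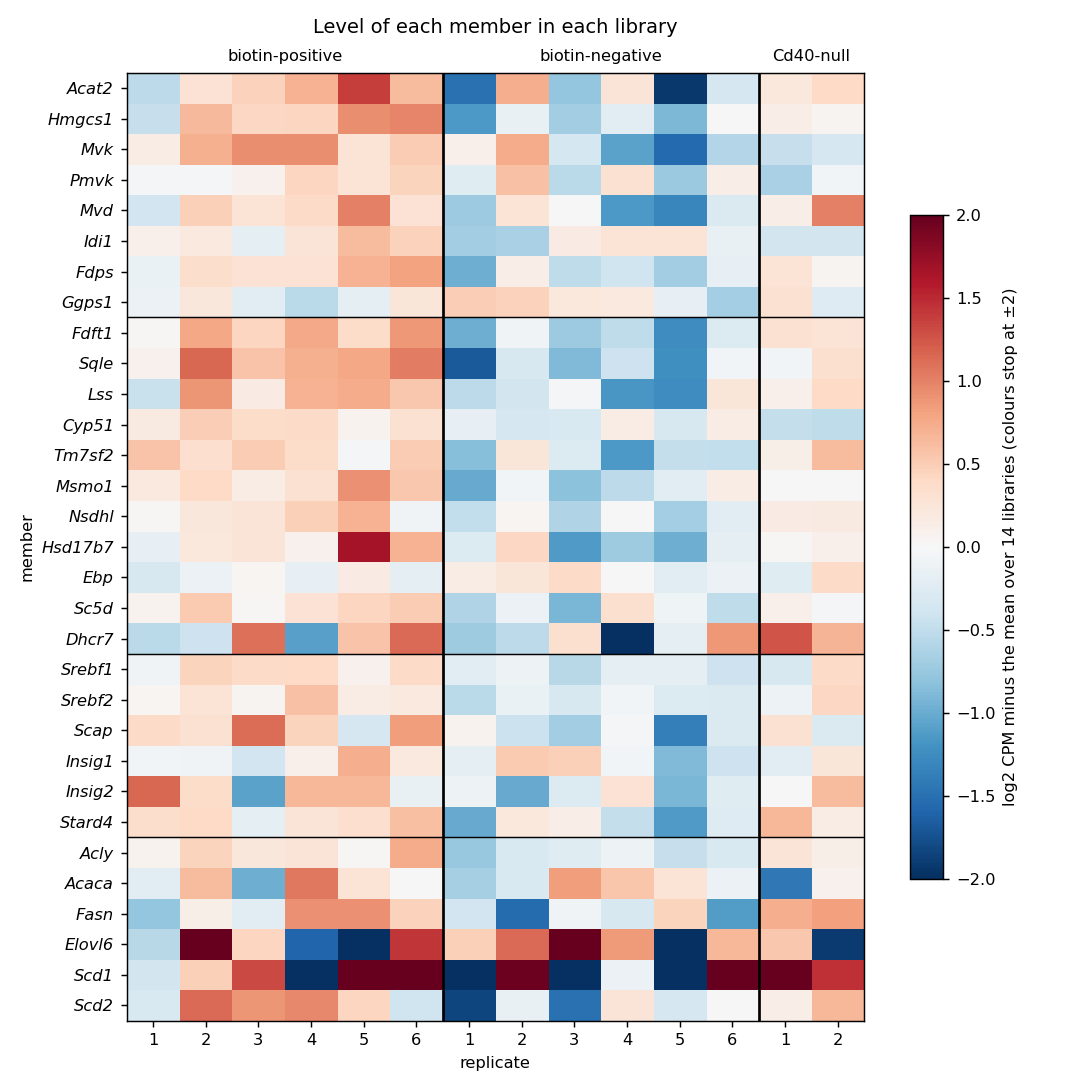
Log2 CPM of each gene (rows, parted by role) in each library (columns, by group and replicate), as the difference from the gene's mean over the 14 libraries, with colours ending at 2 either way. Biotin-positive replicate 1 is paler than the rest of its group in the sterol rows, biotin-negative replicate 2 is redder than the rest of its own, and the lowest rows (Elovl6 and Scd1) vary most.

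Certain libraries were low or high across many of the sterol genes. The mean log2 CPM of the 19 mevalonate and sterol genes was 6.08 ± 0.24 in biotin-positive (SD, n = 6), 5.37 ± 0.30 in biotin-negative (SD, n = 6) and 5.84 ± 0.08 in Cd40-null libraries (SD, n = 2). Biotin-positive replicate 1 had the lowest mean of its group, 5.65, and was the lowest biotin-positive library for 11 of the 19 genes (57.9%), against 17.0% of all genes tested that had no ties. Biotin-negative replicate 2 had the highest mean of its group, 5.81. It was the group's highest library for 9 of the 19 (47.4%), against 20.4% of all genes tested without ties. Biotin-negative replicate 5 was the lowest of its group for 8 (42.1%), against 17.6% of all such genes. Without biotin-negative replicate 2, 13 of the 31 genes rose: 8 of the 11 kept their call and Mvk, Mvd, Tm7sf2, Nsdhl and Hsd17b7 gained 1.

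The Cd40-null libraries ask where these genes stand in DCs that could not receive the signal through CD40. Cyp51 was the only gene of the 31 called against them: it was 1.73-fold higher in biotin-positive DCs (log2 0.79, SE 0.16, adjusted p = 0.0159), with no overlap. Its exons share 3.76% of their length with Akap9 on the opposite strand. Akap9 had a log2 change of 0.50 here (SE 0.17, edgeR adjusted p = 0.179), and the part of shared reads in the Cyp51 level was not tested. Of all genes tested, 1.22% rose and 1.05% fell in this comparison. The 31 genes had a median log2 change of 0.23, against 0.04 over all genes, and 23 of the 31 were above 0. The Cyp51 call rests on both Cd40-null libraries together: without replicate 1 the adjusted p was 0.157 and without replicate 2 it was 0.160, the lone library being taken to vary like the other groups. With the Langerhans level (mean log2 CPM of the list) as a covariate the adjusted p of Cyp51 was 0.0970 (edgeR). The summed CPM of Langerhans cell markers, a different measure given above, did not overlap between biotin-positive and Cd40-null libraries.

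Between biotin-negative and Cd40-null DCs 0 of the 31 genes passed the test in edgeR, and 0 did by DESeq2 or limma voom, where 0.317% of all genes were called by edgeR. At an unadjusted p under 0.05 there were 1 higher and 8 lower, where 5.75% of all genes were higher and 3.47% lower. The median log2 change of the 31 was -0.47, against 0.06 over all genes, and 7 of the 31 were above 0. Fdft1, with a median of 65.6 CPM in biotin-negative and 124 and 121 CPM in the Cd40-null libraries, had a log2 change of -0.87 (SE 0.25, adjusted p = 0.231). Mvd, Dhcr7 and Fasn had larger ones, -1.05 (SE 0.37), -1.14 (SE 0.65) and -1.14 (SE 0.45), on wider errors. The extremes in both directions were Scd1 at -1.67 (SE 1.48) and Elovl6 at 1.27 (SE 1.56), 2 genes that varied widely between libraries. A missed threshold does not show that the groups were alike.

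The Cd40-null mean lay between the biotin-positive and the biotin-negative mean for 18 of the 31 genes, and for 10 of the 11 that rose, Cyp51 being below both. Over all genes tested the share was 28.4%, and over the 526 that rose it was 70.9%. Both Cd40-null libraries were above the highest biotin-negative library for 6 of the 31 genes, Hmgcs1, Fdft1, Sqle, Nsdhl, Acly and Fasn, which held for 4.47% of all genes tested. Both were below the lowest biotin-positive library for 5 of the 31, Mvk, Pmvk, Idi1, Cyp51 and Msmo1, which held for 7.81% of all genes. These 3 comparisons share libraries, so their values are not independent of each other.

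Levels between genes were compared per kilobase of merged GENCODE exons of all isoforms, which allows for length only roughly. In biotin-positive DCs Idi1 was highest, at 186 ± 36 CPM per kilobase, followed by Hmgcs1 at 79.6 ± 24.6, Cyp51 at 71.6 ± 7.41 and Acly at 63.7 ± 12.6 CPM per kilobase. The last 3 lie within an SD of their neighbours, while Idi1 stands apart. In biotin-negative DCs the order was Idi1 at 146 ± 42.2, Cyp51 at 53.2 ± 8.88, Acly at 40.3 ± 6.00 and Hmgcs1 at 39.3 ± 11.9 CPM per kilobase. By mean, Elovl6 was the lowest in both groups, at 0.264 ± 0.283 in biotin-positive and 0.336 ± 0.269 CPM per kilobase in biotin-negative DCs. Acaca was next, at 0.917 ± 0.424 in biotin-positive and 0.866 ± 0.332 CPM per kilobase in biotin-negative DCs. Scd1 followed, at 1.77 ± 1.81 in biotin-positive and 0.918 ± 1.23 CPM per kilobase in biotin-negative DCs. By median, Scd1 lay below Elovl6 in biotin-negative DCs, at 0.265 against 0.287 CPM per kilobase. The place of Scd1 relative to Acaca and Elovl6 is therefore not settled. Fasn stood at 2.34 ± 0.989 in biotin-positive and 1.43 ± 0.665 CPM per kilobase in biotin-negative DCs, far below Acly in both.

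Other genes of lipid metabolism were taken as lists. Of 9 other genes of sterol synthesis 2 rose and 0 fell between biotin-positive and biotin-negative DCs, with a median log2 change of 0.37. Cyb5r3, a reductase that passes electrons to sterol and fatty-acid oxidations, was 1 of the 2, at 345 ± 22.9 CPM in biotin-positive DCs against 217 ± 26.8 CPM in biotin-negative DCs (log2 0.67, SE 0.09, adjusted p = 0.000243). Of 14 genes that use isoprenoids, such as the prenyltransferases, 0 rose or fell (edgeR; 1 higher and 0 lower at an unadjusted p under 0.05), with a median of 0.16.

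Of 16 tested genes of SREBP cutting and other known SREBP targets 0 rose and 1 fell, with a median of 0.26 (5 higher and 1 lower at an unadjusted p under 0.05). The gene that fell was Npc2, which hands cholesterol out of lysosomes, at 448 ± 68.6 CPM in biotin-positive DCs against 972 ± 163 CPM in biotin-negative DCs (log2 -1.12, SE 0.12, adjusted p = 3.15e-05). Npc2 was lower than in Cd40-null libraries too, with 448 ± 68.6 CPM in biotin-positive DCs against 1166 ± 27.5 CPM in Cd40-null DCs (log2 -1.38, SE 0.16, adjusted p = 0.000244). Mbtps1, the protease that makes the first cut in SREBPs, had a log2 change of 0.52 (SE 0.16, adjusted p = 0.0606).

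Of 11 genes of sterol esters and oxysterols 2 rose and 0 fell, with a median of -0.11. Hsd3b7, which inactivates oxysterols that guide lymphocytes, stood at 181 ± 16.5 CPM in biotin-positive DCs against 111 ± 15.0 CPM in biotin-negative DCs (log2 0.70, SE 0.10, adjusted p = 0.000387). Nceh1, a cholesteryl ester hydrolase, stood at 49.4 ± 14.1 CPM in biotin-positive DCs against 22.3 ± 13.3 CPM in biotin-negative DCs (log2 1.15, SE 0.34, adjusted p = 0.0467). Of 19 other genes of fatty-acid synthesis 0 rose and 1 fell, Hsd17b12, a reductase of fatty-acid elongation (log2 -0.55, SE 0.16, adjusted p = 0.0463), with a median of -0.04 (1 higher and 1 lower at an unadjusted p under 0.05). All these medians stand beside -0.03 over all genes tested. The counts of genes that rose or fell between the biotin groups stand beside 3.7% and 4.05% of all genes. A list with 1 or 2 calls is too small to be set apart from those shares.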

How the data were processed

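RNA of 14 Smart-seq2 libraries was sequenced as 38 bp paired-end reads, per the labels' protocols. The authors deposited a gene table of RSEM expected counts, all of them whole, and a smaller table of normalized signal (10321 genes). For the 10318 genes compared, each non-zero value of that table is the gene's count over a scale factor of its library, to a relative deviation of at most 5.11e-15. The submitters' processing notes name Bowtie2 2.1.0, RSEM 1.2.8, DESeq2 1.16.0 and the mouse build mm10. The annotation is not given in the sources used here.

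Counts were rounded and tested in R 4.3.3 with edgeR 4.0.16: filterByExpr with min.count 10 by group, TMM factors, all 14 libraries in 1 fit (glmQLFit, robust), glmQLFTest, two-sided, Benjamini-Hochberg adjustment over 14217 genes, threshold 0.05. SE was taken as the log2 fold change, without its sign, over the root of F. Levels are CPM on TMM-scaled totals, and log2 CPM used a prior count of 2. Alternatives used limma 3.58.1 and DESeq2 1.42.0. The pipeline was tested on simulated counts. Exon lengths and overlaps are from GENCODE vM21 (GRCm38), gene positions and promoters from RefSeq (GRCm38.p6), 1-based. Reads carry no molecular identifiers, so limits from counts cover counting error only.

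Groups came from the sample titles. No 2 libraries of a group agreed within sampling noise (lowest chi-square per degree of freedom 35.3). All 31 genes were to be accounted for, with those called, their neighbouring steps and the regulators given in full, and up to 4 called genes of each other list. The genes, lists and tests were chosen with earlier results of these data known. An item is not reported here.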

Additional observations from a re-analysis of the deposited data

Results flagged for a closer look

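Hsd17b7 stood at 59.3 CPM in biotin-positive replicate 5, the deepest library, where the next highest of the 6 biotin-positive libraries was at 30.2 CPM. The gap is 0.684 of the group's whole range, beyond what Dixon's test allows for 6 values. It was the only such value among 62 groups of values (31 genes in the 2 biotin groups). Chance gives a flag in about 1 of every 20 groups, so 1 flag among 62 groups is not more than chance gives. Without replicate 5 the gene's log2 change between biotin-positive and biotin-negative libraries was 0.63 (edgeR adjusted p = 0.205), against 0.99 with it (adjusted p = 0.0788).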

How the results depend on the processing

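Of the 31 genes, 11 were called between biotin-positive and biotin-negative libraries. The count was 8 to 13 when a library was left out in turn and 10 to 16 under the other settings, except for 18 with DESeq2, 0 with detected genes as a covariate, 2 with the monocyte and macrophage level, 4 with the T cell level and 3 with the Langerhans level (added after seeing the data). None was lower in any setting. With the monocyte and macrophage level Fdft1 and Sqle were called (log2 1.96 and 2.59), with the T cell level also Srebf1 and Srebf2, and with the Langerhans level Fdft1, Sqle and Sc5d. Against Cd40-null libraries the count for biotin-positive DCs was 1, but 0 with the replicate block, 0 with the Langerhans level and 0 to 1 with a library left out. For biotin-negative DCs it was 0 in all 29 settings. Replicate numbers are shared between groups, but same-numbered biotin-positive and biotin-negative libraries did not deviate together (r from -0.0226 to 0.0132 in 6 pairs, 1 of 6 closest to its own number). With the replicate block 11 genes were called, 10 of them the same, and Cyp51 against Cd40-null had an adjusted p of 0.0687. Of 2694 gene values under the alternatives 0 reversed a called direction, 71 lost a call, 25 gained one, and 79 changed sign without being called in either fit. The causes were not tested. Limits: 2 Cd40-null libraries, covariates that overlap with the biotin contrast, and low counts of Elovl6 and Scd1. Reads were also unstranded over shared exons (Fdft1 with Ctsb, Cyp51 with Akap9, and Scap and Hmgcs1 with other genes).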
